A study of Homo sapiens with 22 samples.

Results

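A set of 43 human genes of the interferon response and of class I antigen presentation was followed in H3122 xenograft tumours, out of 58735 genes in the human expression table. The members were taken by symbol: interferon-induced genes, the genes that load and display class I molecules, and CD274, which encodes the checkpoint ligand PD-L1. All 43 symbols were found once each. H3122 is a human lung adenocarcinoma cell line driven by an ALK fusion, and alectinib is an inhibitor of the ALK kinase. Bulk RNA sequencing covered 22 tumours in 6 groups. The hosts were NSG mice, an immunodeficient strain without T, B and NK cells of its own, and hHGF-NSG mice, named in the series title as humanized for HGF, the ligand of the MET receptor. In each host, tumours were therapy-naive or had received alectinib for 2 or for 6 weeks. NSG had 4 tumours in each group, and hHGF-NSG had 3 naive, 4 at 2 weeks and 3 at 6 weeks. The sources used here give no dose, mouse age or driver of human HGF. Every tumour comes from 1 cell line, and nothing says whether each came from its own mouse, so a p-value covers only the spread among the samples.

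Interferons are secreted cytokines that bind paired receptors on the cell surface. Type I interferon signals through JAK kinases to a nuclear complex that contains STAT2 and IRF9 and binds an element in target promoters called the ISRE. Type II interferon drives a STAT dimer to a shorter palindrome, the GAS element, and induces IRF1. The target genes sense viral RNA, block its translation or cell entry, and raise the proteasome, transporter and heavy chain genes by which peptides reach the cell surface on class I molecules, where T cells read them. In tumours, class I display and PD-L1 bear on how T cells meet the cancer cell, and NSG mice have no T cells of their own.

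The human libraries held 10688632 to 19065656 reads, recovered from the deposited FPKM (fragments scaled by gene length and by a library size). That size was 0.8764 to 0.937 of the recovered read total in naive libraries and 0.9858 to 1.1113 of it in treated ones. Scaling by the read total was not tested, so small changes against naive tumours depend on this choice. Mouse reads took a median share of 6.32% in NSG tumours without therapy, 15.28% after 2 weeks and 18.7% after 6. The shares in hHGF-NSG were 8.93%, 12.66% and 28.63%. The library labelled NSG naive replicate 1 held 43 human HGF reads, within the range of the hHGF-NSG libraries, which held 13 to 79, while the other NSG libraries held 0 to 6. Results in NSG are therefore given with and without it where the counts are first stated. H3122 is an epithelial line, and all 6 epithelial markers listed were present, with a summed level, mostly of the keratin genes KRT8, KRT18 and KRT19, of 2430 to 3730 FPKM (NSG) and 2440 to 3580 (hHGF-NSG) before therapy. After 2 weeks it was 1320 to 1540 (NSG) and 1150 to 1410 (hHGF-NSG), and after 6 weeks 1200 to 1440 and 1240 to 1590. The lung lineage factor NKX2-1 went the other way, with a mean of 85.8 FPKM before therapy, 228 after 2 weeks and 235 after 6 in NSG, and of 79.8, 248 and 321 in hHGF-NSG. Of 7 fibroblast markers 5 stayed under 1 FPKM in every library, and the other 2, LUM and COL1A1, were called lower in each comparison with naive tumours. The sum of the 7 ran from 26.8 to 42.1 FPKM (NSG) and 41.9 to 112 (hHGF-NSG) before therapy, from 8.55 to 11.6 and 6.37 to 8.33 after 2 weeks, and from 5.15 to 14.3 and 12.6 to 16.4 after 6. Of 11 leukocyte markers 10 stayed under 1 FPKM in every library, and PTPRC, CD68, CD3E and MS4A1 had at most 2 reads in any. Of 4 endothelial markers 1 stayed under 1 FPKM in every library. The sum of the 4 ran from 4.57 to 8.14 FPKM (NSG) and 4.89 to 7.63 (hHGF-NSG) before therapy. After 2 weeks it ran from 7.17 to 11.3 and 5.91 to 7.27, and after 6 weeks from 7.71 to 19.9 and 7.94 to 11.3. The part of other cells in the results was not tested. In bulk tumours a change in the number of cells of a kind and a change of RNA per cell cannot be told apart.

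Many promoters of the members carry letters of the elements through which interferon acts, and some are shown here because genes with the same letters upstream moved in opposite directions under alectinib. Windows of 300 bases, 250 before to 50 after the start site, were taken from RefSeq (GRCh38.p14) for 34 members that matched by symbol, with DDX58 matched by its newer symbol RIGI. Both strands were searched for an ISRE, written as GAAA, any 2 bases and GAAA, and for a GAS element, written as TTC, any 3 bases and GAA, and matches may overlap. The ISRE letters were in 1255 of 35116 promoters (3.574%), and in 22 of the 34 members. The GAS letters were in 2689 promoters (7.657%), and in 9 of the 34. In 3 members the matches of both motifs overlapped. Of the matched members that rose in both hosts at 6 weeks, 6 of 12 held an ISRE match, while STAT2, IRF1, IRF9, HERC6, DDX58 and PSMB8 held none. Of those that fell in both hosts, 4 of 4 did: IFITM1, IFITM3, IFI44L and TAP2. In these 4 the RefSeq start lay 534, 6677, 526 and 41 bases from the start of the gene in the deposited annotation, so the window may not be that of the start in use. The 7 windows printed are of 100 bases each, all upstream of the RefSeq start, 5′ to 3′ on the strand of the gene, with ISRE matches in capitals.
DDX60 (chr4:168318776-168318875, minus strand): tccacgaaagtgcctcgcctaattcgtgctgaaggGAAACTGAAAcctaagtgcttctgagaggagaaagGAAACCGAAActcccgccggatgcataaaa
IFIT1 (chr10:89392450-89392549, plus strand): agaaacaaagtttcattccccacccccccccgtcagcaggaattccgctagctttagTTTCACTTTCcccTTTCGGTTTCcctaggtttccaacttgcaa
IFIT3 (chr10:89327805-89327904, plus strand): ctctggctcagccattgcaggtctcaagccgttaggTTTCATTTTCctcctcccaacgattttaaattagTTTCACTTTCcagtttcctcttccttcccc
IFI6 (chr1:27672256-27672355, minus strand): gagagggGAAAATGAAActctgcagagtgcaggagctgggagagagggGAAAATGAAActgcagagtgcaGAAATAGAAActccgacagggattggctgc
IFITM1 (chr11:313930-314029, plus strand): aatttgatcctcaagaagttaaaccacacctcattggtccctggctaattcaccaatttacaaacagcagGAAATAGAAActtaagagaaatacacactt
IFI44L (chr1:78620305-78620404, plus strand): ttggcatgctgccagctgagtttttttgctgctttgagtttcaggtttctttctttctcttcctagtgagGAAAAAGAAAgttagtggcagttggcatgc
TAP2 (chr6:32838768-32838867, minus strand): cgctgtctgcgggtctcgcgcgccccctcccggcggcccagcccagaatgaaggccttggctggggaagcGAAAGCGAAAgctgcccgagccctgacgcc
DDX60, IFIT1 and IFIT3 rose in both hosts, and IFI6 had the largest rise of the tested members in hHGF-NSG at 2 and at 6 weeks on the log2(FPKM + 1) scale, which understates changes of low genes. By the ratio of mean FPKM, IFI6 was 3.58-fold and 9.08-fold above naive tumours there, and IFIT1, from a lower level, 4.6-fold and 13.1-fold. IFITM1, IFI44L and TAP2 fell in both hosts. In IFIT1 and IFIT3 the matches read on the other strand and so appear as TTTC, any 2 bases and TTTC. IFI44L and IFITM1 each have another match outside the window printed. A match is a string of letters in this window and was not tested as a binding site.

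Under alectinib some members were called higher and others lower, and more were called higher at 6 weeks than at 2 weeks in each host. Of the 43 members 33 passed the filter of 1 FPKM or more in at least 3 libraries and were tested with limma among 16029 genes, and a call means an adjusted p of 0.05 or less. In NSG 9 of 33 members were called higher and 8 lower at 2 weeks, beside 28.1% and 28% of all genes tested. At 6 weeks 15 were higher and 7 lower, beside 28.8% and 28.8% of all genes. Without NSG naive replicate 1 the counts were 8 and 7 at 2 weeks and 15 and 7 at 6 weeks. In hHGF-NSG 9 were higher and 7 lower at 2 weeks, beside 27.5% and 26.6% of all genes. At 6 weeks 19 were higher and 5 lower, beside 25.9% and 25.5% of all genes. As shares of the tested members, 27.3% were higher in each host at 2 weeks, close to the background, and 45.5% in NSG and 57.6% in hHGF-NSG at 6 weeks. The shares called lower were under the background in each comparison. The median log2 change of the 33 was 0.14 in NSG at 2 weeks and 0.22 at 6 weeks, and 0.20 and 0.50 in hHGF-NSG, while over all genes it was 0.024 to 0.032 in these comparisons.

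**Figure D1:**
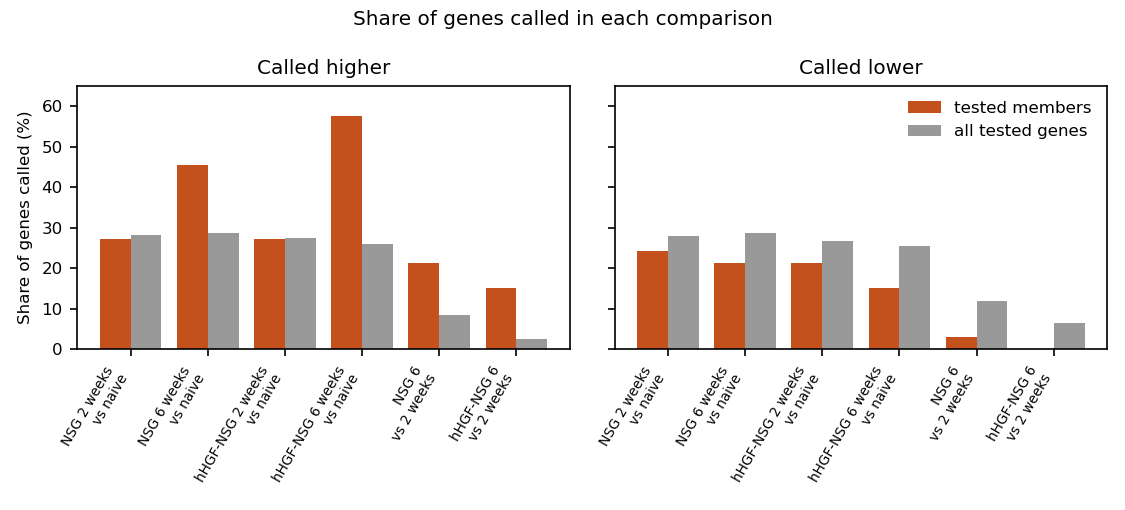
Share of genes called higher (left) and lower (right) in 6 comparisons, in percent, for the 33 tested members (orange) and all 16029 tested genes (grey). At 6 weeks against naive 57.6% of members were called higher in hHGF-NSG, beside 25.9% of all genes, while the shares at 2 weeks were near the background.

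Several of the tested members reached 1 FPKM in few libraries, mostly those of the state in which they were high: IFIT1, IFIT2, IFIT3, IFITM1, IFITM2, IFITM3 and IFI44L did so in 4 to 8 of 22. They passed the filter through that state and had to differ, so the counts above describe the members and do not support a direction. With no filter all 43 members were fitted among 38040 genes. Then 6 were called higher and 9 lower in NSG at 2 weeks, beside 13.3% and 12.6% of all genes. At 6 weeks 15 were higher and 9 lower, beside 13.5% and 13.1%. In hHGF-NSG 7 were higher and 8 lower at 2 weeks, beside 13.3% and 12.8%, and at 6 weeks 21 were higher and 6 lower, beside 11.5% and 12%. From 2 to 6 weeks 1 was higher and 0 lower in NSG, beside 2.79% and 4.39%, and 4 were higher and 0 lower in hHGF-NSG, beside 1.03% and 2.78%.

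In both hosts the same 7 members were called higher at 2 weeks, namely STAT2, IRF1, USP18, HERC6, DDX58, DDX60 and IFIT2, and the same 7 were called lower, namely OAS3, IFITM1, IFITM2, IFITM3, IFI44L, TAP2 and B2M. Of all genes tested 23% were called higher and 23.2% lower in both hosts at 2 weeks, beside 7 of 33 members in each direction. At 6 weeks 14 were higher in both hosts: STAT2, IRF1, IRF9, HERC6, DDX58, DDX60, IFIT1, IFIT2, IFIT3, IFIT5, MX1, TAP1, PSMB8 and HLA-E. The 5 that were lower in both hosts at 6 weeks were IFITM1, IFITM2, IFITM3, IFI44L and TAP2. Of all genes tested 20.8% were higher and 21.9% lower in both hosts at 6 weeks. The comparisons at 2 and at 6 weeks share the naive tumours of each host.

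**Figure D2:**
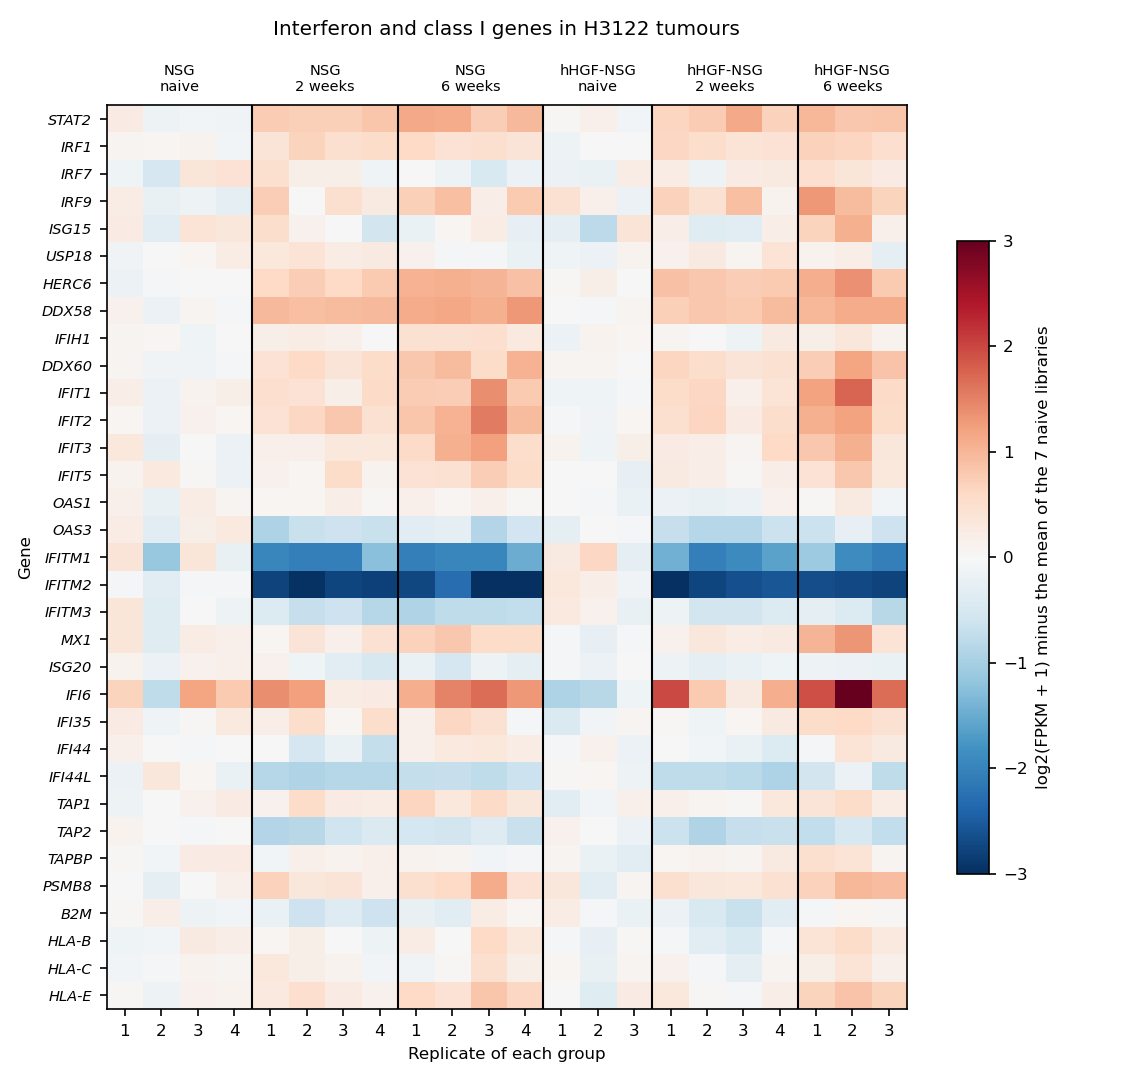
log2(FPKM + 1) of the 33 tested members in each of the 22 libraries, minus the mean of the 7 naive libraries of both hosts (red above it, blue below it, scale ending at 3 in each direction). STAT2, DDX58 and HERC6 are red in all treated libraries, and IFITM1, IFITM2 and TAP2 are blue in all of them. The library hHGF-NSG 6 weeks replicate 2 is the highest of its group for 24 of the 33 members, an order not computed over all genes.

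At 6 weeks the transcription factors STAT2, IRF9 and IRF1 rose in both hosts, and IRF7 was not called. Positions of genes are those of the deposited human table (hg38). STAT2 (ENSG00000170581, chr12:56341597-56360155, minus strand) is the STAT protein of the type I interferon complex. It measured 9.89, 7.26, 7.67 and 7.45 FPKM in the NSG naive libraries, 14.5, 14, 13.9 and 15.3 at 2 weeks and 19, 18.6, 14.3 and 17 at 6 weeks. It measured 8.3, 9.09 and 7.66 FPKM in the hHGF-NSG naive libraries, 13.3, 14.6, 19.1 and 13.7 at 2 weeks and 17.3, 15 and 15.4 at 6 weeks. Each treated library lay above every naive library of its host. The log2 change was 0.78 ± 0.11 (adjusted p = 5.73e-06) in NSG at 2 weeks and 1.01 ± 0.11 (adjusted p = 1.67e-07) at 6 weeks. In hHGF-NSG it was 0.78 ± 0.12 (adjusted p = 1.43e-05) and 0.85 ± 0.13 (adjusted p = 1.29e-05). The error of a log2 change is its standard error (SE) throughout, and changes are on the scale of log2(FPKM + 1). As a ratio of mean FPKM this was 2.13-fold in NSG and 1.9-fold in hHGF-NSG at 6 weeks.

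IRF9 (ENSG00000213928, chr14:24161053-24166565, plus strand) is the DNA-binding partner of STAT2. Its values were 1.83, 1.07, 1.17 and 0.962 FPKM in the NSG naive libraries, 3.05, 1.4, 2.36 and 1.93 at 2 weeks and 2.97, 3.5, 1.75 and 3.15 at 6 weeks. In the other host they were 2.34, 1.69 and 1.13 FPKM in the hHGF-NSG naive libraries, 2.9, 2.3, 3.51 and 1.6 at 2 weeks and 4.97, 3.69 and 2.81 at 6 weeks. Only the hHGF-NSG libraries at 6 weeks lay above all their naive libraries, and IRF9 spread widely within groups. The change at 6 weeks was 0.76 ± 0.20 (adjusted p = 0.00346) in NSG and 0.82 ± 0.24 (adjusted p = 0.00619) in hHGF-NSG. The NSG call at 2 weeks, 0.48 ± 0.20 (adjusted p = 0.0499), ended without any 1 of replicates 2, 3 and 4 of NSG naive, replicates 1, 3 and 4 of NSG 2 weeks, replicates 1, 2 and 4 of NSG 6 weeks, replicate 2 of hHGF-NSG naive, replicates 1 and 2 of hHGF-NSG 2 weeks or replicate 2 of hHGF-NSG 6 weeks (adjusted p of 0.0508 to 0.165). The change in hHGF-NSG at 2 weeks was 0.39 ± 0.22 (adjusted p = 0.145), not called.

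IRF1 (ENSG00000125347, chr5:132481609-132490798, minus strand) is a factor of both interferon pathways and acts on class I genes. It measured 2.12, 2.1, 2.19 and 1.8 FPKM in the NSG naive libraries, 2.89, 3.65, 3.09 and 3.35 at 2 weeks and 3.43, 2.97, 3.09 and 2.85 at 6 weeks. The hHGF-NSG values were 1.64, 1.93 and 1.93 FPKM in the hHGF-NSG naive libraries, 3.54, 3.27, 2.95 and 3.01 at 2 weeks and 3.73, 3.63 and 3.17 at 6 weeks. No treated library overlapped with the naive libraries of its host. The changes were 0.48 ± 0.08 (adjusted p = 3.67e-05) and 0.42 ± 0.08 (adjusted p = 0.000138) in NSG at 2 and 6 weeks. They were 0.56 ± 0.086 (adjusted p = 1.24e-05) and 0.67 ± 0.092 (adjusted p = 4.04e-06) in hHGF-NSG. IRF1 overlaps with C5orf56, a gene on the other strand with a mean of 0.713 FPKM. C5orf56 changed by 0.605 and 0.715 in NSG and 0.396 and 0.499 in hHGF-NSG, called higher in each. The sources used here do not give the use of strand in counting, and sharing of reads between them was not tested. IRF7, the factor that amplifies interferon production, ranged from 7.14 to 15.5 FPKM over all libraries. Its changes of 0.14 and -0.23 in NSG and 0.20 and 0.43 in hHGF-NSG did not pass the test. Without NSG naive replicate 2 the 6-week changes of IRF7 were called, lower in NSG (adjusted p = 0.0336) and higher in hHGF-NSG (adjusted p = 0.0413), the latter also without hHGF-NSG naive replicate 3 (adjusted p = 0.0434).

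The members grouped here with the ISG15 system, in which ISG15 is attached to proteins like ubiquitin, changed in part. HERC6 (ENSG00000138642, chr4:88378739-88443111, plus strand) belongs to the HERC family of ubiquitin ligases, and whether it acts on ISG15 in these tumours was not tested. It measured 1.12, 1.31, 1.42 and 1.39 FPKM in the NSG naive libraries, 2.59, 3, 2.59 and 3.13 at 2 weeks and 3.9, 3.97, 3.82 and 3.36 at 6 weeks. In hHGF-NSG it had 1.43, 1.67 and 1.36 FPKM in the hHGF-NSG naive libraries, 3.38, 3.15, 2.98 and 3.08 at 2 weeks and 4.03, 5.12 and 3.13 at 6 weeks. Treated tumours did not overlap with the naive tumours of their host, and in NSG every library at 6 weeks was above every library at 2 weeks. The changes were 0.73 ± 0.10 (adjusted p = 2.59e-06) and 1.04 ± 0.10 (adjusted p = 1.61e-08) in NSG and 0.74 ± 0.11 (adjusted p = 5.81e-06) and 1.02 ± 0.11 (adjusted p = 2.42e-07) in hHGF-NSG.

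ISG15 (ENSG00000187608, chr1:1001138-1014540, plus strand), the modifier itself, was among the most abundant members. NSG tumours had 60.5, 40.3, 68.5 and 65.5 FPKM in the NSG naive libraries, 73.7, 55.9, 50.8 and 34.8 at 2 weeks and 44.4, 53.3, 59.5 and 43 at 6 weeks. hHGF-NSG tumours had 42.4, 29.4 and 67 FPKM in the hHGF-NSG naive libraries, 58.9, 39.5, 40.2 and 58.6 at 2 weeks and 82, 109 and 57.1 at 6 weeks. The groups overlapped in each comparison. The change in hHGF-NSG at 6 weeks was 0.85 ± 0.29 (adjusted p = 0.0201) and was called. It ended without any 1 of replicate 2 of hHGF-NSG naive or replicates 1 and 2 of hHGF-NSG 6 weeks (adjusted p of 0.0512 to 0.135), and with no filter (adjusted p = 0.051). The other changes were -0.14 and -0.21 in NSG and 0.14 in hHGF-NSG at 2 weeks, with no call. USP18, the protease that removes ISG15 and dampens the type I receptor, ranged from 7.56 to 12.7 FPKM. Its rise at 2 weeks was small, 0.26 ± 0.11 (adjusted p = 0.0462) in NSG and 0.28 ± 0.12 (adjusted p = 0.0472) in hHGF-NSG. The NSG call ended without any 1 of replicates 1, 2 and 3 of NSG naive, replicates 1, 2 and 4 of NSG 2 weeks, replicate 2 of NSG 6 weeks, replicate 1 of hHGF-NSG naive, replicates 1 and 2 of hHGF-NSG 2 weeks or replicate 1 of hHGF-NSG 6 weeks (adjusted p of 0.0504 to 0.138). The hHGF-NSG call ended without any 1 of replicates 2 and 3 of NSG naive, replicates 1, 2, 3 and 4 of NSG 2 weeks, replicates 2 and 3 of NSG 6 weeks, replicates 1 and 2 of hHGF-NSG naive, replicates 2 and 4 of hHGF-NSG 2 weeks or replicate 1 of hHGF-NSG 6 weeks (adjusted p of 0.0501 to 0.17). Neither call held with the replicate block, in the voom fit or with no filter. At 6 weeks the changes of USP18 were -0.08 and 0.08, not called.

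Among the RNA sensors and helicases, DDX58 and DDX60 rose in both hosts, and IFIH1 rose in NSG at 6 weeks. DDX58 (ENSG00000107201, chr9:32455705-32526324, minus strand) encodes RIG-I, a cytosolic sensor of viral RNA. It measured 3.14, 2.34, 3.02 and 2.61 FPKM in the NSG naive libraries, 6.4, 6.1, 6.27 and 6.43 at 2 weeks and 7.17, 7.41, 6.93 and 8.37 at 6 weeks. The hHGF-NSG libraries had 2.78, 2.68 and 3.03 FPKM in the hHGF-NSG naive libraries, 5.25, 5.62, 5.54 and 6.37 at 2 weeks and 6.54, 7.26 and 7.23 at 6 weeks. Naive tumours of both hosts stayed at or under 3.14 FPKM, and treated tumours were at 5.25 or more. The changes were 0.95 ± 0.078 (adjusted p = 1.83e-09) and 1.17 ± 0.078 (adjusted p = 8.79e-11) in NSG. They were 0.80 ± 0.084 (adjusted p = 7.89e-08) and 1.06 ± 0.09 (adjusted p = 4.52e-09) in hHGF-NSG. By mean FPKM DDX58 was 2.69-fold higher at 6 weeks in NSG and 2.48-fold higher in hHGF-NSG.

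DDX60 (ENSG00000137628, chr4:168216293-168318807, minus strand), a helicase related to the RNA sensors, had 1.11, 0.863, 0.861 and 0.949 FPKM in the NSG naive libraries, 1.7, 2, 1.58 and 1.94 at 2 weeks and 2.49, 2.87, 1.93 and 3.13 at 6 weeks. Its hHGF-NSG values were 1.09, 1.1 and 0.977 FPKM in the hHGF-NSG naive libraries, 2.09, 1.89, 1.62 and 1.72 at 2 weeks and 2.33, 3.53 and 2.59 at 6 weeks. Every treated library was above every naive library of its host. The changes were 0.53 ± 0.11 (adjusted p = 0.000407) and 0.88 ± 0.11 (adjusted p = 9.78e-07) in NSG and 0.46 ± 0.12 (adjusted p = 0.00279) and 0.88 ± 0.13 (adjusted p = 7.94e-06) in hHGF-NSG. IFIH1 (ENSG00000115267, chr2:162267079-162318703, minus strand) encodes MDA5, the sensor of long double-stranded RNA. It measured 2.62, 2.54, 2.15 and 2.4 FPKM in the NSG naive libraries, 2.84, 2.96, 2.82 and 2.41 at 2 weeks and 3.69, 3.72, 3.85 and 3.16 at 6 weeks. The other host had 2.01, 2.67 and 2.58 FPKM in the hHGF-NSG naive libraries, 2.64, 2.47, 2.08 and 3.1 at 2 weeks and 2.89, 3.33 and 2.65 at 6 weeks. Only the NSG tumours at 6 weeks stood above all their naive tumours. The change there was 0.42 ± 0.10 (adjusted p = 0.000718). In hHGF-NSG at 6 weeks it was 0.21 ± 0.11 (adjusted p = 0.113), with no call, and the difference between the hosts was -0.21 ± 0.14 (adjusted p = 0.546), also with no call.

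**Figure D3:**
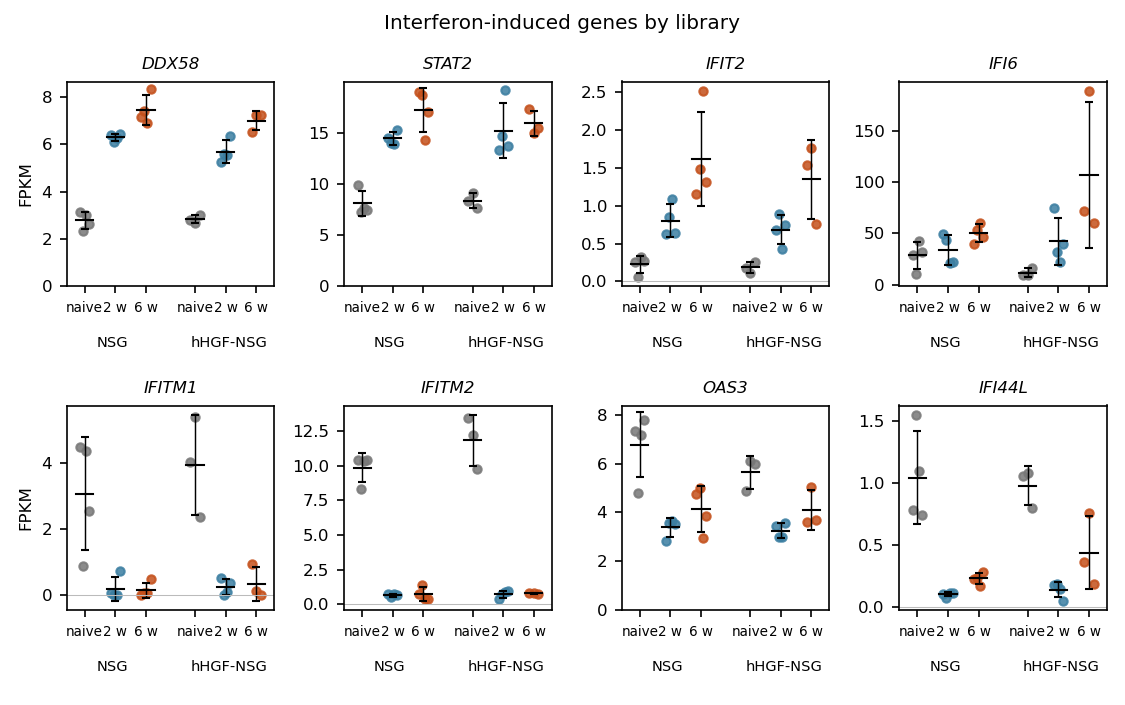
FPKM of 8 members in each library (points), with the group mean and SD (black), for NSG (left of each panel) and hHGF-NSG (right). DDX58 and STAT2 separate naive from treated tumours with no overlap, IFI6 reaches 189 FPKM in 1 hHGF-NSG tumour at 6 weeks, and IFITM1, IFITM2 and IFI44L are lower in all treated tumours than in the naive tumours of their host.

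The IFIT genes, whose proteins bind foreign RNA and block its translation, lie together on chromosome 10 and were low in naive tumours. IFIT2 (ENSG00000119922, chr10:89283694-89309276, plus strand) measured 0.249, 0.0618, 0.319 and 0.263 FPKM in the NSG naive libraries, 0.625, 0.847, 1.09 and 0.645 at 2 weeks and 1.15, 1.49, 2.52 and 1.31 at 6 weeks. It had 0.18, 0.112 and 0.262 FPKM in the hHGF-NSG naive libraries, 0.674, 0.89, 0.428 and 0.74 at 2 weeks and 1.53, 1.76 and 0.754 at 6 weeks. The treated tumours lay above the naive tumours of their host. The changes were 0.56 ± 0.16 (adjusted p = 0.00646) and 1.07 ± 0.16 (adjusted p = 1.09e-05) in NSG. In hHGF-NSG they were 0.50 ± 0.18 (adjusted p = 0.0206) and 0.96 ± 0.19 (adjusted p = 0.000233). The hHGF-NSG call at 2 weeks ended without any 1 of replicate 2 of hHGF-NSG naive or replicate 2 of hHGF-NSG 2 weeks (adjusted p of 0.0589 to 0.0699). The ratio of mean FPKM at 6 weeks was 7.24 in NSG and 7.29 in hHGF-NSG.

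IFIT1 (ENSG00000185745, chr10:89392546-89406486, plus strand) had 0.412, 0.0961, 0.331 and 0.402 FPKM in the NSG naive libraries, 0.757, 0.677, 0.392 and 0.842 at 2 weeks and 1.1, 1.07, 2.22 and 1.11 at 6 weeks. hHGF-NSG libraries had 0.128, 0.128 and 0.19 FPKM in the hHGF-NSG naive libraries, 0.799, 0.906, 0.381 and 0.646 at 2 weeks and 1.84, 3.14 and 0.848 at 6 weeks. NSG 6 weeks replicate 3 was high at 2.22 FPKM, and no 6-week tumour overlapped with naive ones. The changes at 6 weeks were 0.84 ± 0.20 (adjusted p = 0.00111) in NSG and 1.28 ± 0.23 (adjusted p = 8.71e-05) in hHGF-NSG. At 2 weeks they were 0.35 ± 0.20 (adjusted p = 0.143), not called, and 0.54 ± 0.21 (adjusted p = 0.0374), called. The latter call ended without any 1 of replicates 1, 2 and 3 of hHGF-NSG naive or replicates 1, 2 and 4 of hHGF-NSG 2 weeks (adjusted p of 0.0566 to 0.0924), with the replicate block (adjusted p = 0.06) and with no filter (adjusted p = 0.0739), and the NSG change was called with a pseudocount of 0.1 (adjusted p = 0.042) and in the voom fit (adjusted p = 0.0433).

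IFIT3 (ENSG00000119917, chr10:89327894-89340971, plus strand) measured 0.803, 0.216, 0.44 and 0.295 FPKM in the NSG naive libraries, 0.617, 0.625, 0.804 and 0.811 at 2 weeks and 1.16, 2.05, 2.41 and 1.08 at 6 weeks. In hHGF-NSG it had 0.559, 0.323 and 0.637 FPKM in the hHGF-NSG naive libraries, 0.72, 0.661, 0.528 and 1.19 at 2 weeks and 1.55, 2.07 and 0.827 at 6 weeks. At 6 weeks no tumour overlapped with the naive ones of its host, while at 2 weeks the groups overlapped. The 6-week changes were 0.88 ± 0.18 (adjusted p = 0.000364) in NSG and 0.69 ± 0.21 (adjusted p = 0.00916) in hHGF-NSG, and the latter ended without replicate 2 of hHGF-NSG 6 weeks (adjusted p = 0.0635). IFIT5, the most even member of the family, ranged from 1.91 to 5.12 FPKM. It rose at 6 weeks by 0.48 ± 0.13 (adjusted p = 0.00311) in NSG and 0.60 ± 0.15 (adjusted p = 0.00191) in hHGF-NSG. The bodies of IFIT1, IFIT2 and IFIT3 lie inside the annotated span of LIPA, a lysosomal lipase gene on the other strand that ranged from 8.69 to 17.4 FPKM, and the sources used here do not give the use of strand in counting. The changes of LIPA were -0.50 and -0.24 in NSG and -0.36 and -0.26 in hHGF-NSG, called lower at 2 weeks in both hosts and not called at 6 weeks.

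The OAS enzymes, which make the second messenger that activates RNase L, did not rise together. OAS3 (ENSG00000111331, chr12:112938352-112973249, plus strand) measured 7.34, 4.81, 7.17 and 7.78 FPKM in the NSG naive libraries, 2.81, 3.56, 3.65 and 3.53 at 2 weeks and 4.74, 5.01, 2.95 and 3.85 at 6 weeks. Its hHGF-NSG values were 4.87, 6.1 and 5.97 FPKM in the hHGF-NSG naive libraries, 3.43, 2.99, 3.01 and 3.58 at 2 weeks and 3.6, 5.04 and 3.67 at 6 weeks. At 2 weeks all treated tumours were lower than the naive ones, and at 6 weeks the groups overlapped. The changes at 2 weeks were -0.81 ± 0.14 (adjusted p = 5e-05) in NSG and -0.64 ± 0.15 (adjusted p = 0.00121) in hHGF-NSG. At 6 weeks they were -0.60 ± 0.14 (adjusted p = 0.00105), called, and -0.39 ± 0.16 (adjusted p = 0.0508), not called. The second was called in the voom fit (adjusted p = 0.0384) and on leaving out any 1 of replicate 2 of NSG naive, replicate 1 of NSG 2 weeks, replicates 2 and 3 of NSG 6 weeks, replicate 1 of hHGF-NSG naive and replicate 2 of hHGF-NSG 6 weeks (adjusted p of 0.0196 to 0.0486). OAS1 stayed between 8.4 and 12.2 FPKM in all libraries, with changes of -0.041 to 0.15 and no call. OAS2 and OASL stayed under 1 FPKM and were not tested. In the fit with no filter OAS2 was higher in hHGF-NSG at 6 weeks, with a change of 0.50 ± 0.094 (adjusted p = 0.000506).

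MX1 (ENSG00000157601, chr21:41420304-41459214, plus strand), a dynamin-like GTPase that traps viral nucleocapsids, measured 1.1, 0.272, 0.911 and 0.82 FPKM in the NSG naive libraries, 0.703, 1.15, 0.83 and 1.27 at 2 weeks and 1.65, 1.88, 1.42 and 1.43 at 6 weeks. The hHGF-NSG tumours had 0.574, 0.38 and 0.617 FPKM in the hHGF-NSG naive libraries, 0.809, 1.08, 0.921 and 0.999 at 2 weeks and 2.34, 3.15 and 1.18 at 6 weeks. At 6 weeks all tumours of both hosts were above the naive ones of their host. The changes were 0.57 ± 0.17 (adjusted p = 0.00756) in NSG and 1.03 ± 0.20 (adjusted p = 0.00018) in hHGF-NSG. At 2 weeks MX1 was not called, with 0.18 and 0.36. Its neighbour MX2 stayed at or under 0.225 FPKM in all libraries, and its changes of 0.013 to 0.13 in the fit with no filter were not called.

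The IFITM genes fell in both hosts. Their proteins sit in membranes and restrict the entry of viruses. IFITM2 (ENSG00000185201, chr11:307631-315272, plus strand) measured 10.4, 8.33, 10.4 and 10.4 FPKM in the NSG naive libraries, 0.704, 0.496, 0.713 and 0.657 at 2 weeks and 0.754, 1.4, 0.397 and 0.378 at 6 weeks. It had 13.4, 12.3 and 9.81 FPKM in the hHGF-NSG naive libraries, 0.373, 0.72, 0.864 and 0.948 at 2 weeks and 0.841, 0.778 and 0.708 at 6 weeks. Naive tumours were at 8.33 FPKM or more, and treated tumours at 1.4 or less, with no overlap in any host or time. The changes were -2.72 ± 0.15 (adjusted p = 3.67e-12) and -2.68 ± 0.15 (adjusted p = 5.3e-12) in NSG. They were -2.90 ± 0.16 (adjusted p = 5.19e-12) and -2.85 ± 0.17 (adjusted p = 3.14e-11) in hHGF-NSG. By mean FPKM IFITM2 was 15.4-fold lower at 2 weeks and 13.5-fold lower at 6 weeks in NSG, and 16.3-fold and 15.3-fold lower in hHGF-NSG.

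IFITM1 (ENSG00000185885, chr11:313506-315272, plus strand) had 4.47, 0.88, 4.37 and 2.55 FPKM in the NSG naive libraries, 0.0719, 0, 0 and 0.73 at 2 weeks and 0, 0.0715, 0.0709 and 0.486 at 6 weeks. The values in hHGF-NSG were 4.03, 5.4 and 2.37 FPKM in the hHGF-NSG naive libraries, 0.533, 0, 0.112 and 0.364 at 2 weeks and 0.948, 0.124 and 0 at 6 weeks. All treated tumours were lower than the naive tumours of their host, and 5 treated libraries had no read, which allows up to 3 reads in each. The changes were -1.68 ± 0.30 (adjusted p = 8.63e-05) and -1.71 ± 0.30 (adjusted p = 6.9e-05) in NSG and -1.95 ± 0.33 (adjusted p = 4.05e-05) and -1.88 ± 0.35 (adjusted p = 0.000148) in hHGF-NSG. IFITM1 lies within the annotated span of IFITM2 on the same strand, and the IFITM genes are close paralogs, so reads could be shared or dropped between them and each single value is uncertain.

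IFITM3 (ENSG00000142089, chr11:319669-327537, minus strand) had 1.9, 0.752, 1.24 and 1.02 FPKM in the NSG naive libraries, 0.691, 0.393, 0.467 and 0.251 at 2 weeks and 0.216, 0.344, 0.341 and 0.346 at 6 weeks. Its hHGF-NSG values were 1.75, 1.46 and 0.948 FPKM in the hHGF-NSG naive libraries, 1.03, 0.55, 0.539 and 0.709 at 2 weeks and 0.861, 0.693 and 0.27 at 6 weeks. The groups did not overlap in NSG or at 6 weeks in hHGF-NSG. The changes were -0.60 ± 0.16 (adjusted p = 0.00377) and -0.74 ± 0.16 (adjusted p = 0.00064) in NSG. They were -0.48 ± 0.18 (adjusted p = 0.0272) and -0.57 ± 0.19 (adjusted p = 0.0154) in hHGF-NSG. The hHGF-NSG call at 2 weeks ended without any 1 of replicates 1 and 2 of hHGF-NSG naive or replicates 2 and 3 of hHGF-NSG 2 weeks (adjusted p of 0.0664 to 0.133), and that at 6 weeks without any 1 of replicate 1 of hHGF-NSG naive or replicate 3 of hHGF-NSG 6 weeks (adjusted p of 0.0768 to 0.0969). BST2, the tetherin that holds budding virus at the surface, missed the filter. It had 0.283 to 1.65 FPKM in naive tumours and at most 0.244 in treated ones, with 0 reads in 9 libraries. In the fit with no filter it was lower in all 4 comparisons, with changes of -0.65 ± 0.15 (adjusted p = 0.00283) and -0.63 ± 0.15 (adjusted p = 0.00372) in NSG and -0.77 ± 0.17 (adjusted p = 0.00145) and -0.68 ± 0.18 (adjusted p = 0.00725) in hHGF-NSG.

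Among the remaining induced genes, IFI6 rose and IFI44L fell in hHGF-NSG, and IFI44L fell in NSG too. IFI6 (ENSG00000126709, chr1:27666061-27672218, minus strand) is a small mitochondrial and endoplasmic reticulum protein. NSG tumours had 29.4, 10.3, 42.6 and 32.1 FPKM in the NSG naive libraries, 49.5, 44.1, 21.5 and 21.7 at 2 weeks and 40.1, 53.2, 60.6 and 46.4 at 6 weeks. hHGF-NSG tumours had 9.13, 9.85 and 16.4 FPKM in the hHGF-NSG naive libraries, 75.1, 32.3, 22 and 39.5 at 2 weeks and 71.7, 189 and 60.4 at 6 weeks. In hHGF-NSG all treated tumours were above the naive ones, and replicate 2 at 6 weeks stood at 189 FPKM. In NSG the groups overlapped, as naive tumours ranged from 10.3 to 42.6 FPKM. The changes in hHGF-NSG were 1.66 ± 0.46 (adjusted p = 0.00442) at 2 weeks and 2.93 ± 0.49 (adjusted p = 4.29e-05) at 6 weeks, and 0.31 and 0.93 in NSG with no call. The NSG change at 6 weeks was called in the voom fit (adjusted p = 0.0362), without NSG naive replicate 3 (adjusted p = 0.0341) and without hHGF-NSG 6 weeks replicate 2 (adjusted p = 0.0469). The difference between hosts at 6 weeks, 2.00 ± 0.65 (adjusted p = 0.235), did not pass the test.

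IFI44L (ENSG00000137959, chr1:78619922-78646145, plus strand), a cytoplasmic protein of uncertain function, had 0.785, 1.55, 1.1 and 0.742 FPKM in the NSG naive libraries, 0.106, 0.0748, 0.115 and 0.11 at 2 weeks and 0.227, 0.234, 0.172 and 0.285 at 6 weeks. In hHGF-NSG it measured 1.06, 1.08 and 0.801 FPKM in the hHGF-NSG naive libraries, 0.174, 0.181, 0.142 and 0.0494 at 2 weeks and 0.36, 0.762 and 0.187 at 6 weeks. No treated library reached the naive ones of its host. The changes were -0.88 ± 0.14 (adjusted p = 2.19e-05) and -0.72 ± 0.14 (adjusted p = 0.000195) in NSG and -0.80 ± 0.15 (adjusted p = 0.000151) and -0.48 ± 0.16 (adjusted p = 0.0175) in hHGF-NSG. The hHGF-NSG call at 6 weeks ended without any 1 of replicates 1 and 2 of hHGF-NSG naive or replicates 1 and 3 of hHGF-NSG 6 weeks (adjusted p of 0.0529 to 0.102). Its neighbour on chromosome 1, IFI44, ranged from 2.57 to 6.84 FPKM and was called once against naive tumours, with -0.38 ± 0.13 (adjusted p = 0.0223) in NSG at 2 weeks. That call ended without any 1 of replicate 1 of NSG naive or replicates 2 and 4 of NSG 2 weeks (adjusted p of 0.0619 to 0.106).

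IFI35 (ENSG00000068079, chr17:43006725-43014456, plus strand), a leucine zipper protein, had 1.3, 0.771, 0.994 and 1.4 FPKM in the NSG naive libraries, 1.22, 1.79, 1.04 and 1.8 at 2 weeks and 1.18, 2, 1.67 and 0.857 at 6 weeks. Its values in hHGF-NSG were 0.449, 0.83 and 1.06 FPKM in the hHGF-NSG naive libraries, 0.993, 0.778, 1.04 and 1.34 at 2 weeks and 1.87, 1.96 and 1.66 at 6 weeks. Only hHGF-NSG at 6 weeks lay above all its naive tumours, with a change of 0.68 ± 0.18 (adjusted p = 0.00346). In NSG at 6 weeks the change was 0.18 ± 0.16 (adjusted p = 0.328), not called. ISG20, an RNA exonuclease, lay between 3.37 and 5.88 FPKM and was called lower in NSG at 6 weeks, -0.33 ± 0.11 (adjusted p = 0.0141), a call that ended without replicate 2 of NSG 6 weeks (adjusted p = 0.0618). IFI27 stayed under 1 FPKM, and in the fit with no filter it was lower in NSG at 6 weeks, -0.39 ± 0.12 (adjusted p = 0.0179). XAF1, a pro-apoptotic induced gene, had 1 read in 1 library and none in the other 21.

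The class I pathway changed in some steps and not in others. PSMB8 (ENSG00000204264, chr6:32840717-32844703, minus strand) is a catalytic subunit of the immunoproteasome, which cuts proteins into peptides. It measured 3.1, 2.39, 3.01 and 3.51 FPKM in the NSG naive libraries, 5.57, 4.17, 4.28 and 3.49 at 2 weeks and 4.66, 5.1, 7.79 and 4.47 at 6 weeks. It had 4.14, 2.27 and 3.32 FPKM in the hHGF-NSG naive libraries, 4.63, 4.15, 4.04 and 4.62 at 2 weeks and 5.56, 7.1 and 6.77 at 6 weeks. At 6 weeks all tumours were above the naive ones of their host. The changes at 6 weeks were 0.68 ± 0.15 (adjusted p = 0.000735) in NSG and 0.83 ± 0.18 (adjusted p = 0.000498) in hHGF-NSG. The NSG change at 2 weeks, 0.42 ± 0.15 (adjusted p = 0.0244), was called and ended without any 1 of replicate 2 of NSG naive or replicate 1 of NSG 2 weeks (adjusted p of 0.082 to 0.0961), and with no filter (adjusted p = 0.0557). PSMB8 at 2 weeks in hHGF-NSG was 0.36 ± 0.17 (adjusted p = 0.0724), a change called without NSG 6 weeks replicate 3 (adjusted p = 0.0361) or without hHGF-NSG naive replicate 1 (adjusted p = 0.0225). PSMB9, another immunoproteasome subunit, missed the filter. In the fit with no filter PSMB9 was higher in hHGF-NSG at 6 weeks, 0.64 ± 0.18 (adjusted p = 0.0132). It overlaps with PSMB8 and TAP1 on the other strand.

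TAP1 and TAP2 encode the paired subunits of the transporter that brings peptides into the endoplasmic reticulum, and at 6 weeks they moved in opposite directions in both hosts. TAP2 (ENSG00000204267, chr6:32821833-32838780, minus strand) had 2.04, 1.83, 1.73 and 1.87 FPKM in the NSG naive libraries, 0.534, 0.59, 0.874 and 1.11 at 2 weeks and 0.967, 0.942, 1.17 and 0.784 at 6 weeks. Its hHGF-NSG values were 2.13, 1.82 and 1.53 FPKM in the hHGF-NSG naive libraries, 0.811, 0.522, 0.768 and 0.783 at 2 weeks and 0.705, 1.02 and 0.712 at 6 weeks. All treated tumours were lower than all naive tumours of their host. The changes were -0.70 ± 0.11 (adjusted p = 2.69e-05) and -0.55 ± 0.11 (adjusted p = 0.000386) in NSG and -0.71 ± 0.12 (adjusted p = 5.6e-05) and -0.64 ± 0.13 (adjusted p = 0.000404) in hHGF-NSG. TAP1 (ENSG00000168394, chr6:32845209-32853978, minus strand) ranged from 0.768 to 1.58 FPKM in naive tumours and from 1.53 to 2.39 at 6 weeks. Its changes at 6 weeks were 0.41 ± 0.12 (adjusted p = 0.00889) in NSG and 0.46 ± 0.14 (adjusted p = 0.0111) in hHGF-NSG, and the latter call ended without any 1 of replicate 1 of hHGF-NSG naive or replicate 2 of hHGF-NSG 6 weeks (adjusted p of 0.0575 to 0.0697). TAPBP, the tapasin that bridges transporter and class I molecule, ranged from 20.5 to 36.5 FPKM and was called in hHGF-NSG at 6 weeks, with 0.47 ± 0.12 (adjusted p = 0.00331).

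HLA-E (ENSG00000204592, chr6:30489467-30494205, plus strand), a class I molecule that NK cell receptors recognise, measured 23.5, 20.8, 25.3 and 24.7 FPKM in the NSG naive libraries, 28.3, 33.1, 27.4 and 25.3 at 2 weeks and 35.6, 31.3, 41.6 and 35.7 at 6 weeks. It had 23.1, 17.9 and 27.4 FPKM in the hHGF-NSG naive libraries, 28.9, 23.5, 22.4 and 26.5 at 2 weeks and 37.2, 42.5 and 36.9 at 6 weeks. Tumours at 6 weeks were above all naive ones. In NSG at 2 weeks the lowest library, at 25.32 FPKM, lay just above the highest naive one, at 25.28. The change there was not called by limma, except without any 1 of NSG 2 weeks replicate 4 or hHGF-NSG naive replicates 2 and 3 (adjusted p of 0.042 to 0.0479). The changes at 6 weeks were 0.59 ± 0.12 (adjusted p = 0.000298) in NSG and 0.76 ± 0.14 (adjusted p = 0.00011) in hHGF-NSG. HLA-B ranged from 10.1 to 22.1 FPKM. It was higher in hHGF-NSG at 6 weeks, 0.50 ± 0.15 (adjusted p = 0.00742), and was called in NSG at 6 weeks only without NSG 6 weeks replicate 2 (adjusted p = 0.0455). HLA-C, at 24 to 41.7 FPKM, was not called, although each hHGF-NSG tumour at 6 weeks lay above the naive ones. HLA-F missed the filter and was higher in hHGF-NSG at 6 weeks in the fit with no filter, 0.51 ± 0.15 (adjusted p = 0.0161). The class I heavy chain genes are similar in sequence to differing degrees, and HLA-B and HLA-C overlap in annotated span on the same strand. Reads may be split between HLA-B and HLA-C, and for the other heavy chain genes this was not tested.

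B2M (ENSG00000166710, chr15:44711487-44718877, plus strand), the light chain shared by all class I molecules, had 35.4, 40, 31.1 and 32.6 FPKM in the NSG naive libraries, 30, 21.9, 26 and 22.1 at 2 weeks and 29.6, 27.6, 40.1 and 36 at 6 weeks. hHGF-NSG had 40.2, 33.5 and 29.8 FPKM in the hHGF-NSG naive libraries, 30.3, 24.8, 21.3 and 27.3 at 2 weeks and 33.2, 35.8 and 35.1 at 6 weeks. It was called lower at 2 weeks and overlapped with the naive range at 6 weeks in both hosts. The changes at 2 weeks were -0.47 ± 0.13 (adjusted p = 0.00536) in NSG and -0.40 ± 0.14 (adjusted p = 0.0233) in hHGF-NSG, and the latter ended without any 1 of replicate 1 of hHGF-NSG naive or replicate 3 of hHGF-NSG 2 weeks (adjusted p of 0.0837 to 0.139). At 6 weeks they were -0.069 ± 0.13 (adjusted p = 0.679) and 0.017 ± 0.15 (adjusted p = 0.938), with no call.

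NLRC5 (ENSG00000140853, chr16:56989485-57083531, plus strand), the transactivator of class I genes, stayed at or under 0.248 FPKM. It measured 0.118, 0.118, 0.223 and 0.232 FPKM in the NSG naive libraries, 0.125, 0.0856, 0.102 and 0.1 at 2 weeks and 0.159, 0.181, 0.0927 and 0.184 at 6 weeks. Its hHGF-NSG values were 0.0834, 0.143 and 0.201 FPKM in the hHGF-NSG naive libraries, 0.0791, 0.0726, 0.0636 and 0.0863 at 2 weeks and 0.248, 0.194 and 0.198 at 6 weeks. In the fit with no filter none of its changes against naive were called. CD274 (ENSG00000120217, chr9:5450503-5470566, plus strand), which encodes PD-L1, had 0.462, 0.262, 0.212 and 0.291 FPKM in the NSG naive libraries, 0.397, 0.229, 0.191 and 0.247 at 2 weeks and 0.336, 0.564, 0.261 and 0.61 at 6 weeks. In hHGF-NSG it had 0.773, 0.542 and 0.344 FPKM in the hHGF-NSG naive libraries, 0.435, 0.206, 0.354 and 0.287 at 2 weeks and 0.316, 0.471 and 0.244 at 6 weeks. The groups overlapped throughout and no library reached 1 FPKM. Its changes in the fit with no filter were -0.045 ± 0.10 (adjusted p = 0.898) and 0.14 ± 0.10 (adjusted p = 0.39) in NSG and -0.23 ± 0.11 (adjusted p = 0.151) and -0.20 ± 0.12 (adjusted p = 0.252) in hHGF-NSG, with no call.

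**Figure D4:**
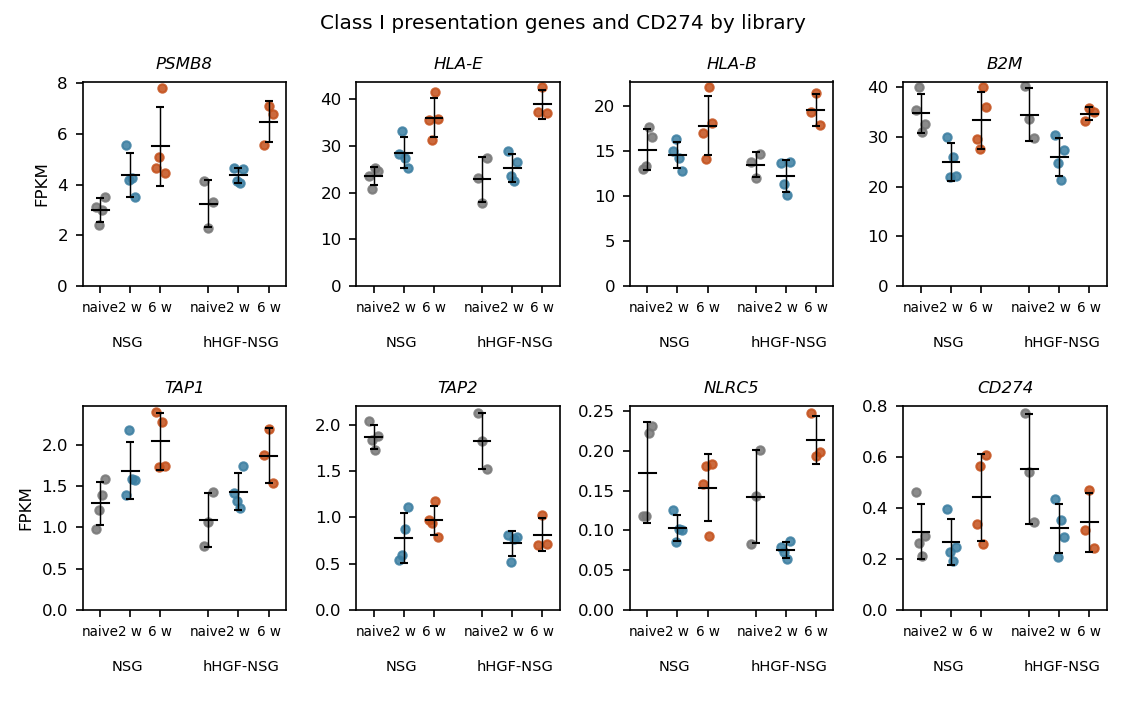
FPKM of 7 class I presentation genes and CD274 in each library (points), with the group mean and SD (black). PSMB8 and HLA-E lie above the naive tumours at 6 weeks in both hosts, TAP2 lies below them at both times, and CD274 stays under 1 FPKM in all 22 libraries.

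By level per length, the members spanned from 0 to 189 FPKM. B2M, HLA-C, HLA-E, TAPBP, ISG15 and HLA-B were over 10 FPKM in every library, and 20 members were at 1 FPKM or more in every library. The 7 that stayed under 1 FPKM throughout were OAS2, OASL, MX2, IFI27, XAF1, NLRC5 and CD274. The ranges of B2M (21.3 to 40.2 FPKM), HLA-C (24 to 41.7) and HLA-E (17.9 to 42.5) overlapped, so that these 3 had no order beyond their spread.

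From 2 to 6 weeks more of the tested members were called higher than lower in each host. In NSG 7 members were called higher and 1 lower, beside 8.43% and 11.9% of all genes tested. In hHGF-NSG 5 were higher and 0 lower, beside 2.63% and 6.45%. These calls include IFIT1, IFIT2 and IFIT3, which passed the filter through the state in which they were high. The counts therefore do not support a direction. Among the same filtered members 0 were lower in hHGF-NSG by limma at an unadjusted p under 0.05, beside 12% of all genes. The voom fit called 0 of them lower, beside 6.38%, and these counts carry the same limit. DDX60 was called in both hosts, with 0.35 ± 0.11 (adjusted p = 0.0289) in NSG and 0.42 ± 0.12 (adjusted p = 0.0284) in hHGF-NSG. In NSG IFI44 rose by 0.60 ± 0.13 (adjusted p = 0.00344), with every 6-week library above every 2-week one, and HERC6, IFIH1, IFIT2, IFIT3 and B2M were also called, while USP18 was lower, -0.34 ± 0.11 (adjusted p = 0.0308). In hHGF-NSG HLA-B, 0.64 ± 0.14 (adjusted p = 0.00385), and HLA-E, 0.60 ± 0.13 (adjusted p = 0.00365), were called with no overlap, as were MX1, 0.68 ± 0.18 (adjusted p = 0.0221), and, with overlap, IFIT1, 0.74 ± 0.21 (adjusted p = 0.0314). Of these calls IFI44 in NSG and HLA-B and HLA-E in hHGF-NSG held in all 27 alternatives. In NSG the count of 8 fell to 2 without NSG 2 weeks replicate 1, to 5 without any 1 of NSG 2 weeks replicates 2, 3 and 4 or NSG 6 weeks replicate 4, to 3 without NSG 6 weeks replicate 2, to 4 without replicate 3 and to 1 with no filter. In hHGF-NSG the count of 5 fell to 3 without hHGF-NSG 2 weeks replicate 3 or 6 weeks replicate 1, to 2 without 6 weeks replicate 2 and to 3 with a pseudocount of 0.1. With no filter HLA-B and HLA-E kept their call in hHGF-NSG, while DDX60 (adjusted p = 0.0522), IFIT1 (adjusted p = 0.0671) and MX1 (adjusted p = 0.0502) lost it by limma. NLRC5 was higher in hHGF-NSG in the fit with no filter, 0.17 ± 0.044 (adjusted p = 0.0286), as was OAS2, 0.45 ± 0.088 (adjusted p = 0.0046).

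**Figure D5:**
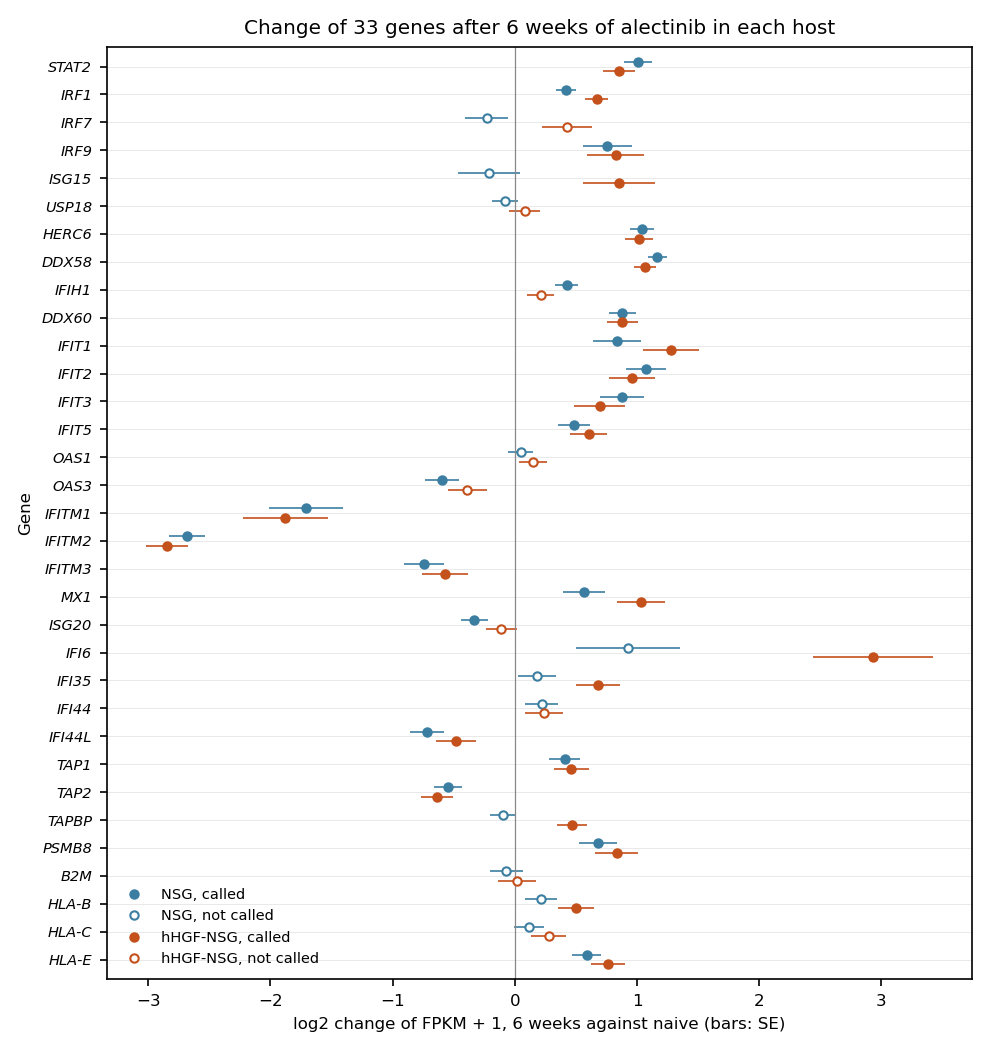
log2 change of FPKM + 1 at 6 weeks against naive for the 33 tested members in NSG (blue) and hHGF-NSG (orange), with SE bars. Filled points were called at an adjusted p of 0.05 or less. IFITM2 has the lowest values in both hosts (-2.68 and -2.85), and IFI6 the highest in hHGF-NSG (2.93), beside 0.93 in NSG.

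Between hosts no member was called by limma before therapy or at either time, nor for a difference in the response to alectinib. The background was 0.0187% of all genes in naive tumours and 0% in each of the other comparisons between hosts. By limma at an unadjusted p under 0.05, 2 members differed between hosts before therapy, 0 at 2 weeks and 4 at 6 weeks, beside 8.9%, 4.25% and 12.1% of all genes. By the same measure 1 and 5 differed in their response at 2 and 6 weeks, beside 5.36% and 13.4%. The voom fit called none and gave 2, 0, 4, 1 and 4 at that unadjusted p, beside 9.58%, 4.33%, 12.1%, 5.57% and 13.5% of all genes. The 5 for the response at 6 weeks were IRF7, ISG15, IFI6, IFI35 and TAPBP, each higher in hHGF-NSG: the differences were 0.66 ± 0.27 (adjusted p = 0.305), 1.06 ± 0.39 (adjusted p = 0.263), 2.00 ± 0.65 (adjusted p = 0.235), 0.50 ± 0.24 (adjusted p = 0.373) and 0.56 ± 0.16 (adjusted p = 0.207). They were singled out after their values were seen. For STAT2 the difference was -0.15 ± 0.17, for DDX58 -0.10 ± 0.12, for IFITM2 -0.16 ± 0.23 and for HLA-E 0.17 ± 0.18. A p that misses the threshold does not show that the hosts respond alike.

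Within groups, single libraries were the highest or lowest for many members, an order not computed over all genes. In hHGF-NSG at 6 weeks replicate 2 was the highest of its group for 24 of the 33 tested members and replicate 3 the lowest for 25. That replicate 3 had the fewest human reads of all libraries, 10688632, and the part of depth was not tested. NSG naive replicate 2 was the lowest of its group for 19, hHGF-NSG 2 weeks replicate 3 the lowest for 17, and NSG 6 weeks replicate 3 the highest for 16. Mouse reads also took a larger share at 6 weeks, from 5.5% to 13.48% in naive tumours and from 16.91% to 28.95% at 6 weeks. At 2 weeks the share was 12.12% to 20.24% in NSG. In hHGF-NSG it was 8.71% to 17.42% at 2 weeks, which overlapped with 6.81% to 13.48% in its naive tumours. The part of the mouse share in the results was not tested.

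Interferon genes themselves had few reads. Of 13 interferon genes 5 (IFNA2, IFNA5, IFNA6, IFNB1 and IFNG) had no read in any library, which allows up to 3 reads in each, and none passed the filter. IFNE, an epithelial type I interferon, had 137 reads in all, in 21 libraries and at most 15 in any, and IFNL2 had 15. IFNE measured 0 to 0.198 FPKM in NSG naive tumours, 0.24 to 0.789 after 2 weeks and 0.209 to 0.394 after 6, with no overlap with the naive ones. In hHGF-NSG it measured 0.1 to 0.311, 0.191 to 0.616 and 0.231 to 0.271, with overlap. Of 9 receptors and kinases 6 were tested. In the order of NSG at 2 and 6 weeks and hHGF-NSG at 2 and 6 weeks, 0, 0, 1 and 1 were called higher and 1, 0, 1 and 0 lower. In that order, which the counts of the lists that follow keep, 28.1%, 28.8%, 27.5% and 25.9% of all genes tested were higher and 28%, 28.8%, 26.6% and 25.5% lower. IFNGR1, a chain of the type II receptor, changed by -0.46 and -0.24 in NSG and -0.53 and -0.27 in hHGF-NSG, with calls at 2 weeks. IFNGR2, its partner, changed by 0.051 and 0.18 in NSG and 0.30 and 0.36 in hHGF-NSG, with calls in hHGF-NSG. IFNGR1 was singled out after its values were seen.

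Of 12 genes of nucleic acid sensing 10 were tested, and 1, 1, 1 and 2 were higher and 2, 1, 4 and 3 lower in the same order, where 25.9% to 28.8% of all genes were higher and 25.5% to 28.8% lower. TMEM173, which encodes the adaptor STING, changed by 0.91 and 0.10 in NSG and 1.12 and 0.45 in hHGF-NSG, called in all but NSG at 6 weeks. ADAR, the editor of double-stranded RNA, was lower in all 4 comparisons, -0.41 and -0.35 in NSG and -0.27 and -0.43 in hHGF-NSG. TLR3, an endosomal sensor, was higher at 6 weeks, 0.51 in NSG and 0.52 in hHGF-NSG, and EIF2AK2, the RNA-activated kinase PKR, changed by -0.52 and -0.13 in NSG and -0.47 and -0.52 in hHGF-NSG, not called in NSG at 6 weeks. All 8 negative regulators were tested, with 3, 4, 2 and 2 higher and 2 lower in each, beside the same shares of all genes. SOCS1, an inhibitor of JAK kinases, rose by 0.72 and 0.53 in NSG and 0.80 and 0.78 in hHGF-NSG. SOCS3, its relative that acts on other cytokine receptors, fell, with -0.56 and -0.99 in NSG and -0.81 and -0.94 in hHGF-NSG. IRF2, an antagonist of IRF1, rose by 0.55 and 0.78 in NSG and 0.84 and 1.03 in hHGF-NSG. TRIM21, an antibody receptor and ubiquitin ligase, changed by 0.32 and 0.51 in NSG and 0.061 and 0.17 in hHGF-NSG, called in NSG, with a difference between hosts at 6 weeks of -0.34 ± 0.20 (adjusted p = 0.465), not called.

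Of 35 further interferon-induced genes 26 were tested, and 11, 15, 9 and 16 were higher and 4, 2, 4 and 1 lower in the same order. Of all genes 28.1%, 28.8%, 27.5% and 25.9% were higher and 28%, 28.8%, 26.6% and 25.5% lower. Their median log2 change was 0.22, 0.38, 0.22 and 0.44, beside 0.024 to 0.032 for all genes. UBE2L6, the enzyme that conjugates ISG15, rose by 1.70 and 2.15 in NSG and 1.93 and 2.33 in hHGF-NSG. GBP3, a guanylate-binding protein, rose by 1.31 and 1.52 in NSG and 1.00 and 1.17 in hHGF-NSG, APOL1 by 0.77 and 1.17 in NSG and 1.05 and 1.30 in hHGF-NSG and SAMD9L by 0.75 and 1.15 in NSG and 0.64 and 0.81 in hHGF-NSG.

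Of 13 genes of class I assembly and of the proteasome 12 were tested, with 2, 3, 2 and 2 higher and 6, 6, 3 and 4 lower, beside 28.1%, 28.8%, 27.5% and 25.9% higher and 28%, 28.8%, 26.6% and 25.5% lower of all genes. The genes of 2 chaperones that fold class I molecules were lower in all 4 comparisons, with changes for CALR of -0.90 and -0.86 in NSG and -0.97 and -0.87 in hHGF-NSG and for CANX of -0.89 and -0.69 in NSG and -0.94 and -0.84 in hHGF-NSG. TAPBPL, an editor of bound peptides, rose by 0.75 and 0.56 in NSG and 0.99 and 0.95 in hHGF-NSG, and PSMB10, the third immunoproteasome subunit, by 0.94 and 0.79 in NSG and 0.65 and 0.70 in hHGF-NSG. Of 12 other immune ligands 10 were tested, with 1 higher in each comparison and 6, 7, 5 and 4 lower, beside the same shares of all genes. The higher one was CD47, the signal that restrains macrophages, at 1.18 and 2.05 in NSG and 1.08 and 1.65 in hHGF-NSG. ULBP2, a ligand of the NK receptor NKG2D, fell, with -1.57 and -1.50 in NSG and -1.82 and -1.69 in hHGF-NSG. PVR, a ligand of the receptors DNAM-1 and TIGIT, fell, with -0.96 and -1.26 in NSG and -1.08 and -1.34 in hHGF-NSG, and CD276, which encodes B7-H3, fell, with -0.84 and -0.996 in NSG and -0.87 and -0.87 in hHGF-NSG. None of 9 class II genes passed the filter.

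In the mouse reads of the same tumours, which come from the host tissue, interferon-induced genes are given here as mean FPKM ± SD with n of 3 or 4 and without a test. Of 16 listed mouse interferon and class I genes, 2 lay above all naive tumours at 6 weeks in NSG, 5 below and 9 overlapped. In hHGF-NSG 3 lay above (B2m, Ifi27l2a and Ifit3), 4 below (Ifit2, Isg15, Oas2 and Stat2) and 9 overlapped. The matching shares over all mouse genes were not computed, so these counts describe the listed genes only. Ifi27l2a measured 349 ± 149 in NSG naive, 379.6 ± 115 at 2 weeks and 1232 ± 172 at 6 weeks. In hHGF-NSG it was 379.6 ± 96.5, 952 ± 541 and 2332 ± 998. Its human relative IFI27 stayed under 1 FPKM. Mouse Isg15 was 28.6 ± 17.3, 17.5 ± 13.6 and 16.1 ± 8.11 in NSG, with wide spread, and 30.1 ± 5.49, 18.5 ± 4.23 and 18.9 ± 0.917 in hHGF-NSG. Mouse Oas2 was 5.21 ± 1.42 in NSG naive and 2.11 ± 0.962 at 6 weeks, and 6.31 ± 1.62 and 3.02 ± 0.384 in hHGF-NSG. The 5 genes below naive levels in NSG were Irf7, Mx1, Oas1a, Oas2 and Usp18. Mouse B2m was 812 ± 152 in NSG naive and 1278 ± 311 at 6 weeks, and 1020 ± 339.5 and 1581 ± 357 in hHGF-NSG. Mouse values of NSG naive replicate 2 were not analysed here, nor those of NSG 6 weeks replicate 4.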

How the data were processed

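Total RNA of H3122 xenograft tumours was sequenced at a company, per the labels' protocols. The authors mapped the reads to human and to mouse genomes and deposited FPKM per gene, the unit named in the series text. The submitters' processing notes name GRCh38, hg38, mm10 and DESeq2, without roles. The sources used here do not give the aligner, the separation of species or the use of strand. Read counts were worked back from the spacing of the deposited FPKM values (100% whole within 0.05). Depth was 10688632 to 19065656 human reads, and intervals from it would cover counting error only. Replicates of a group differed beyond sampling noise in all 30 pairs (chi-square per degree of freedom of 4.04 or more).

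From the FPKM, log2(FPKM + 1) was fitted in limma 3.58.1 (R 4.3.3) with 6 group means over 22 samples and a trended variance. Genes at 1 FPKM or more in at least 3 samples entered the fit, and p-values were adjusted by Benjamini-Hochberg over all 16029 of them. All 11 comparisons are contrasts of this fit. Alternatives were a pseudocount of 0.1, no filter, rescaling by the median ratio, a replicate block, limma voom on the recovered reads and leaving out each sample, 27 settings in all. The voom fit kept the library sizes of the deposited FPKM. Rescaling hardly moved the median change over all genes, from 0.032 to 0.031 in hHGF-NSG at 2 weeks against naive. No setting scaled by the read total, so the alternatives do not test the scaling of naive against treated libraries. Promoters and figures used Python 3.11.15, pandas 2.3.3 and matplotlib 3.10.9. The members and lists were chosen with earlier results of these data known. Values are printed library by library for the 3 members of each role with the largest called change at 6 weeks in either host, and for CD274, NLRC5, B2M and IRF1. Of each other list up to 4 genes with the largest called change at 6 weeks are named. The values of 1 marker gene are not reported here.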

Additional observations from a re-analysis of the deposited data

Results flagged for a closer look

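In groups of 4 tumours, 8 of 100 member and group combinations held a library whose gap to the nearest other exceeded Dixon's 95% critical value, and chance flags about 1 in 20. STAT2 was high in NSG naive replicate 1, at 9.89 FPKM beside 7.26 to 7.67 in the others, and this is the library that also held human HGF reads. IFITM2 was low in NSG naive replicate 2, at 8.33 FPKM beside 10.4 in each of the others. IFIT1 was high in NSG 6 weeks replicate 3, at 2.22 FPKM beside 1.07 to 1.11. OAS3 was low in NSG 2 weeks replicate 1, at 2.81 FPKM beside 3.53 to 3.65. IFITM1 was high in NSG 2 weeks replicate 4, at 0.73 FPKM beside 0 to 0.0719, and in NSG 6 weeks replicate 4, at 0.486 beside 0 to 0.0715. IFITM3 was low in NSG 6 weeks replicate 1, at 0.216 FPKM beside 0.341 to 0.346. TAP2 was low in hHGF-NSG 2 weeks replicate 2, at 0.522 FPKM beside 0.768 to 0.811. Of the 8, 7 lay in NSG groups, which include all but 1 of the groups with 4 tumours.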

How the results depend on the processing

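No result for a member changed direction while called. None of the 27 alternatives scaled the libraries by their read total. Against naive tumours, 13 of 17 called members kept their call in all 27 alternatives in NSG at 2 weeks, 21 of 22 at 6 weeks, 11 of 16 in hHGF-NSG at 2 weeks and 19 of 24 at 6 weeks. Leaving out 1 sample moved these counts to 15 to 18, 22 to 23, 12 to 17 and 22 to 26. The counts from 2 to 6 weeks were less stable. In NSG the count of 8 became 1 with no filter and 2 to 9 on leaving out 1 sample, and in hHGF-NSG the count of 5 became 3 with a pseudocount of 0.1 and 2 to 7 on leaving out 1 sample. With no filter hHGF-NSG had 4 calls from 2 to 6 weeks: HLA-B and HLA-E kept theirs, DDX60 (adjusted p = 0.0522), IFIT1 (0.0671) and MX1 (0.0502) lost it by limma, and OAS2 and NLRC5, which the filter removes, were called. With no filter more genes are adjusted over, and the other causes were not tested. Comparisons between hosts had 0 calls in each alternative. Over the single members, 9375 values kept their direction and their side of the threshold, 139 lost a call, 48 gained one, and 239 that were called in neither fit changed sign. With the replicate block the counts in the 6 comparisons within hosts were 16, 22, 14, 24, 7 and 4. The numbers were not taken as pairs: over 51 pairs of samples with the same number the mean correlation of deviations was -0.014 (-0.329 to 0.265), and 8 of 51 exceeded 0.1. Depth limits the members near 0, where a library without a read allows up to 3.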
